A study of Mus musculus with 6 samples.

Results

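MAP kinase cascade genes and dual-specificity phosphatase genes were examined in the hippocampus of chronically stressed mice given baicalin or saline. They were chosen by gene symbol alone, as every gene named Mapk, Map2k, Map3k, Map4k or Dusp followed only by a number, and 66 of the 32201 genes in the deposited table met that rule. The set holds 13 MAP kinases (MAPK), 7 MAP kinase kinases (MAP2K), 18 genes of the MAP3K tier, 5 of the MAP4K tier and 23 dual-specificity phosphatases (DUSP). A mean of at least 1 FPKM (fragments per kilobase of transcript, scaled to sequencing depth) over all 6 libraries was required for testing, and 51 of the 66 passed it.

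All libraries came from male C57BL/6N mice, an inbred strain, labelled 8 weeks old. The first group, with 3 libraries, received baicalin, a flavone glucuronide from Scutellaria root, at 20 mg/kg and had been exposed to a schedule of changing mild stressors known as chronic unpredictable mild stress. The second group, also with 3 libraries, had the same exposure and received saline. The labels give neither the length of treatment nor its timing relative to the stress. Unstressed control mice are named in the labels and were not analysed here, so no value below is relative to an unstressed level. Separate animals per library are not stated, so each p-value reflects only spread among these 6 libraries, which may be technical. Counts summed to between 61303274 and 64983755 per baicalin library, against 65989141 to 67957752 per saline library. Of these the 66 genes took 0.395 to 0.407% with baicalin and 0.396 to 0.414% with saline.

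In a MAP kinase cascade, each kinase switches on the next by phosphorylation: MAP4K or small G proteins act on a MAP3K, the MAP3K on a MAP2K, and the MAP2K on a MAP kinase. The main branches end in ERK (Mapk3 among its genes), JNK (Mapk8, Mapk9 and Mapk10), p38 (Mapk11 to Mapk14) and ERK5 (Mapk7). In hippocampal neurons the ERK branch links synaptic activity and neurotrophins to transcription. Phosphatases of the DUSP family end the signal by removing phosphate from MAP kinases, and several of them are themselves transcribed when the pathway is active. RNA levels say nothing of kinase phosphorylation or activity.

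To let the phosphatase results be read beside their promoters, windows of 300 bases around the transcription start of 3 phosphatase genes, mostly upstream of it, are given from RefSeq on GRCm38.p6. Dusp6 is shown because its difference was the largest in size among the 51 genes tested, and Dusp1 and Dusp5 because they are textbook activity-induced phosphatases whose groups overlapped. Capitals mark matches, on either strand, to the CRE core TGACGT, the AP-1 site TGANTCA, the ETS site CCGGAAGT and the CArG box bound by serum response factor. The Dusp6 window is chr10:99262981-99263280 on the plus strand, the Dusp1 window chr17:26508423-26508722 on the minus strand and the Dusp5 window chr19:53528895-53529194 on the plus strand.
Dusp6: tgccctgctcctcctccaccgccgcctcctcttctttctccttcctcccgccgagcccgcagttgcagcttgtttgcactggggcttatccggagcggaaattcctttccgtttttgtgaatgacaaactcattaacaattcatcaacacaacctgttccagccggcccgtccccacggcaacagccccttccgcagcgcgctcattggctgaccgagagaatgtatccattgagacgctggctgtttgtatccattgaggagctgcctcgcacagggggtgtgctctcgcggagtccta
Dusp1: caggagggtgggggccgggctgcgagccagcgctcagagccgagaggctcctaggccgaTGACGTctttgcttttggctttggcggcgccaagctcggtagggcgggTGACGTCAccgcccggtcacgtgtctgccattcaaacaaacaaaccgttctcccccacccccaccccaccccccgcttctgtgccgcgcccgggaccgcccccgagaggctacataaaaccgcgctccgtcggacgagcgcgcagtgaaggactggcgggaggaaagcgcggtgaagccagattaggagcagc
Dusp5: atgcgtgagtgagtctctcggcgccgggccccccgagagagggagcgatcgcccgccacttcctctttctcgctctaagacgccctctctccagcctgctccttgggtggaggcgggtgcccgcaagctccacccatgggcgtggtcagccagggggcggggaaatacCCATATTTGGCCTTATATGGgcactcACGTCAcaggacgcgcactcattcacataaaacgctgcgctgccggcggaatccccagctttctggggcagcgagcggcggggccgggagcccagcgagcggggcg
The Dusp1 window held 3 matches to the CRE core, of which 2 overlap as the full palindrome TGACGTCA. In the Dusp5 window there were 2 adjacent CArG boxes and 1 CRE core, and the Dusp6 window matched none of these motifs. Of 32851 promoters of the same length, 7.51% held the CRE core, 1.79% the full palindrome, 7.81% the AP-1 site, 3.89% the ETS site and 1.63% a CArG box. Promoters of 52 of the 66 genes were in the table, and of these 9 held the CRE core, 3 (Mapk10, Dusp1 and Dusp8) the full palindrome, 4 the AP-1 site, 2 the ETS site and 1 (Dusp5) a CArG box. A gene was counted if any of its promoters matched, whereas the percentages are of single promoters, so the 2 are not in the same unit. These are matches of letters and do not show binding.

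Between baicalin and saline libraries, 30 of the 51 genes tested had a log2 change within 0.1 of 0. The same held for 6752 of all 13153 genes tested. Dusp6, a cytoplasmic phosphatase of ERK, had the largest difference, with 29.9% less RNA in the baicalin group. A further 3 genes, Map3k13, Map3k11 and Dusp19, were lower at an unadjusted p under 0.05. With p-values of the edgeR quasi-likelihood test adjusted over 13153 genes (Benjamini-Hochberg), 0 of the 51 genes passed 0.05, where 0.0456% of all genes did (0.0152% higher and 0.0304% lower). At an unadjusted p under 0.05, 4 of the 51 were lower and 0 higher in edgeR, beside 5.46% of all genes lower and 6.34% higher. Under TPM scaling, which sets total FPKM equal in each library, the split of all genes was 1654 lower and 326 higher, against 718 lower and 834 higher with TMM scaling. The number called was 0 in limma on log2(FPKM + 1), while DESeq2 called 2 of the 51, Dusp6 and Map3k13, both lower, beside 1.6% of all genes in either direction and 0.631% lower. Baicalin and saline libraries did not overlap for 6 of the 51 on the low side and 3 on the high side, where the shares of all genes tested were 9.52% and 9.93%. The counts of the set as a whole therefore lie near the background.

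The kinases span a wide range of levels, given here as mean FPKM over all 6 libraries, which corrects for transcript length. Map2k1, the MAP2K that activates ERK, was the most abundant at 100.4 FPKM, with libraries from 97.5 to 104.0. Mapk3 (ERK1) had 55.6 FPKM, with libraries from 40.8 to 62.0, and Map2k4, an activator of JNK, had 55.0 FPKM, with libraries from 53.1 to 58.3. Both lay below every library of Map2k1. The order of Mapk3 and Map2k4 cannot be told from these overlapping ranges. The neuronal JNK gene Mapk10 had a mean of 34.2 FPKM, above about 7.0 FPKM each for the broadly expressed JNK genes Mapk8 and Mapk9. Among MAP3K genes the mixed lineage kinase gene Map3k10 was highest at 29.0 FPKM, followed by the dual leucine zipper kinase gene Map3k12, a neuronal stress kinase, at 12.7 FPKM. Map4k4 led the MAP4K tier at 11.7 FPKM. Dusp8, a phosphatase of JNK and p38, and the small phosphatase Dusp3 led the phosphatases at 26.4 and 25.8 FPKM, with overlapping ranges, and Dusp6 came next at 15.9 FPKM.

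**Figure D1:**
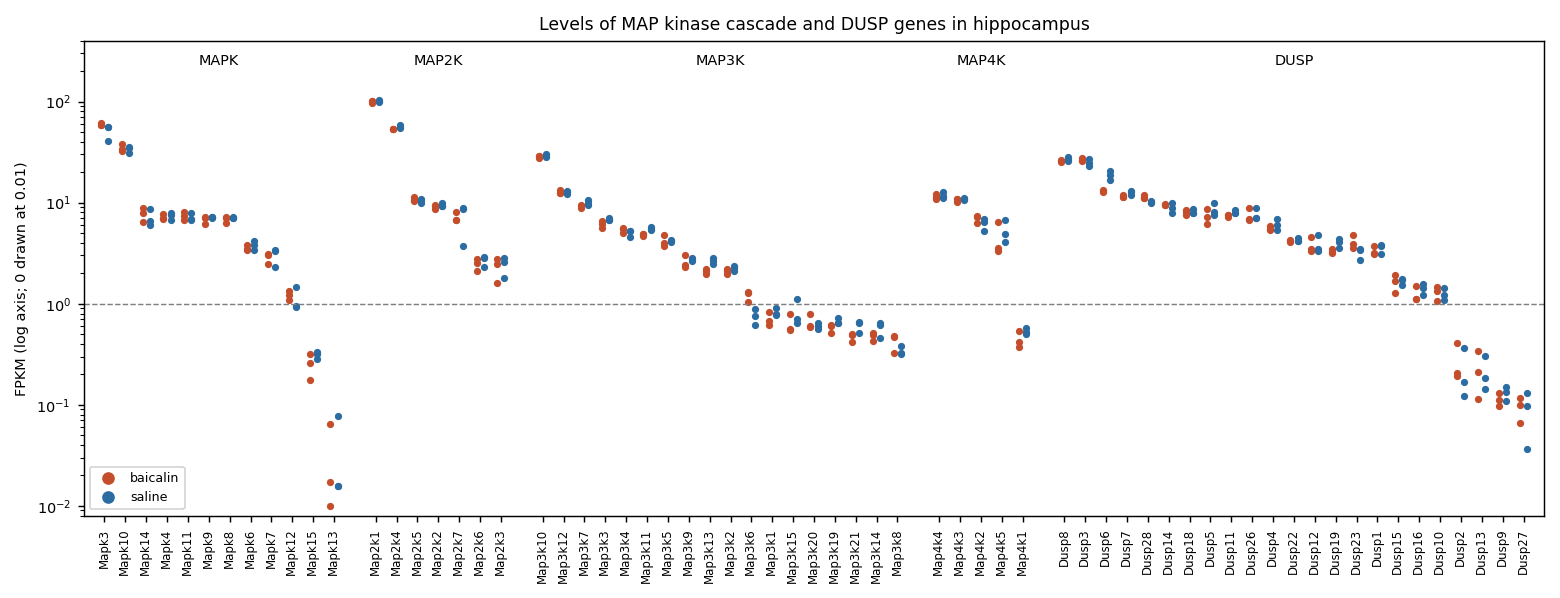
Level of 65 of the genes in FPKM on a log axis, grouped by tier and ordered by mean within a tier, with 1 point per library (baicalin left, saline right) and the filter of 1 FPKM as a dashed line. Map2k1 sits at the top, near 100.4 FPKM, and the means of 15 genes lie below the line.

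The 15 genes below the filter were Mapk13, Mapk15, 8 MAP3K genes (Map3k1, Map3k6, Map3k8, Map3k14, Map3k15, Map3k19, Map3k20 and Map3k21), Map4k1 and the phosphatases Dusp2, Dusp9, Dusp13 and Dusp27. Their means ran down to 0.0317 FPKM for Mapk13, a p38 isoform. Map3k6, which encodes the stress-responsive kinase ASK2, lay just under the filter at 0.978 FPKM, and Mapk12, at 1.16 FPKM, just above it. Map3k6 had 5.50, 6.78 and 7.08 CPM (counts scaled to a common library size with TMM factors) in baicalin libraries, against 3.23, 4.03 and 4.73 CPM in saline libraries. Those ranges did not overlap. Its log2 change without a filter was 0.69 ± 0.18 (SE; edgeR adjusted p = 0.638), with an unadjusted p under 0.05. In the same fit the other 14 low genes were all above that level, while of all 30766 genes 1101 were higher and 986 lower at it. Map3k19 and Map3k21 had all baicalin libraries below all saline libraries. Shares without overlap were counted only for genes at 1 FPKM or more, at 9.52% on the low side and 9.93% on the high side.

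In the terminal tier, ERK, JNK and p38 genes showed small differences, and none of the 11 MAPK genes tested was below an unadjusted p of 0.05. Mapk3 had 153.4, 160.3 and 155.7 CPM in baicalin libraries, against 146.5, 106.5 and 145.9 CPM in saline libraries. All baicalin values lay above the saline ones, and saline library 2 was far below the other saline libraries. Its log2 change was 0.23 ± 0.12 (SE; edgeR adjusted p = 0.488), and 0.10 without saline library 2. The same library was low in summed markers of dentate granule cells, the neurons of the dentate gyrus, at 75.2 FPKM, against 105.0 to 107.9 with baicalin and 100.4 and 105.4 FPKM in the other saline libraries. All 7 of those markers were measured and none was at 0 throughout, and their part in the value of Mapk3 was not tested. In bulk tissue, fewer cells of a type and less RNA per cell cannot be told apart.

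The JNK genes Mapk8, Mapk9 and Mapk10 had log2 changes of -0.03, -0.06 and 0.04, with 95% intervals that all included 0 and reached no further than -0.23 and 0.22. Summed over these JNK genes, levels were 46.3 to 52.02 FPKM with baicalin and 45.4 to 49.6 FPKM with saline. Mapk14, which encodes p38 alpha, had 44.5, 39.6 and 32.8 CPM in baicalin libraries, against 43.7, 30.4 and 33.0 CPM in saline libraries. With groups that overlapped, its interval ran from -0.27 to 0.53, so a sizeable change of Mapk14 was not detectable at this spread. Mapk7, the ERK5 gene, was at -0.05 with an interval from -0.47 to 0.37. The atypical kinase genes Mapk4 and Mapk6 were at -0.03 and -0.09, and the p38 genes Mapk11 and Mapk12 at 0.06 and 0.13. All of these groups overlapped. Under TPM scaling, Mapk10 (-0.04) and Mapk11 (-0.03) had the opposite sign.

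Among MAP2K genes, all 7 were tested and 0 were under an unadjusted p of 0.05. Map2k1 had 393.9, 378.4 and 402.8 CPM in baicalin libraries, against 393.0, 384.0 and 404.9 CPM in saline libraries. These ranges nearly coincide, and the log2 change of -0.0082 had an interval from -0.11 to 0.09. Map2k2, the second activator of ERK, was at -0.05 (interval -0.20 to 0.10) and Map2k4 at -0.07 (interval -0.16 to 0.03). The largest change in this tier was that of Map2k6, an activator of p38, at -0.13 (interval -0.45 to 0.19). Map2k3, the other p38 activator, was at -0.06 (interval -0.64 to 0.51), and Map2k5, the activator of ERK5, at 0.06 (interval -0.09 to 0.20).

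Map2k7, which encodes an activator of JNK, had the widest interval of all 51 genes, from -0.72 to 0.78. It had 29.9, 35.8 and 29.9 CPM in baicalin libraries, against 38.4, 16.4 and 38.7 CPM in saline libraries. Saline library 2 thus stood apart from its group. In the annotation 35.2% of the exonic bases of Map2k7 are shared with Gm49320, a gene on the same strand. That gene had 6.82, 0.26 and 1.14 CPM in baicalin libraries, against 0.12, 16.0 and 0 CPM in saline libraries, so it was highest where Map2k7 was lowest. Summed over both genes, the libraries had 36.8, 36.0 and 31.1 CPM with baicalin and 38.5, 32.4 and 38.7 CPM with saline. The standard deviation in the saline group was 3.59 CPM for the sum, against 12.8 CPM for Map2k7 alone. Rules for reads shared between genes were not given in the sources used here, and this pair was chosen after its values were seen.

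**Figure D2:**
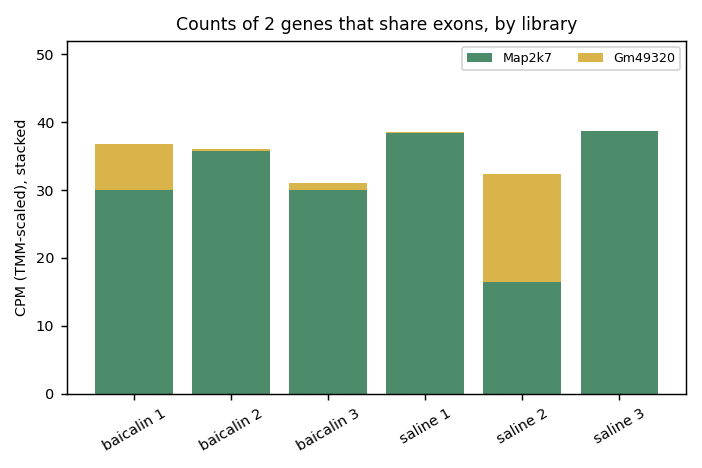
Scaled counts of Map2k7 and of Gm49320, with which it shares exons, stacked for each of the 6 libraries (baicalin left, saline right). Saline library 2 has 16.4 CPM at Map2k7 and 16.0 CPM at Gm49320, while the stacked heights run from 31.1 to 38.7 CPM.

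In the MAP3K tier, 10 of 18 genes were tested. At an unadjusted p under 0.05, 2 of the 10 were lower with baicalin and 0 higher, beside 5.46% and 6.34% of all genes. Map3k13, which encodes leucine zipper kinase, a relative of the axon injury kinase DLK encoded by Map3k12, had 19.9, 21.8 and 21.6 CPM in baicalin libraries, against 24.9, 28.7 and 26.4 CPM in saline libraries. The groups did not overlap. Its log2 change was -0.34 ± 0.08 (SE; edgeR adjusted p = 0.322), a 20.9% lower level. DESeq2 gave Map3k13 an adjusted p of 0.0483, and over all alternatives its adjusted p ranged from 0.0483 to 0.638. Its partner Map3k12 had 129.0, 137.8 and 130.4 CPM in baicalin libraries, against 126.4, 134.8 and 131.2 CPM in saline libraries, with a log2 change of 0.02 (interval -0.09 to 0.13). Within a library, Map3k13 FPKM was 0.159, 0.163 and 0.171 of Map3k12 FPKM with baicalin, against 0.203, 0.220 and 0.208 with saline. All baicalin ratios were below all saline ratios.

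Map3k11, a mixed lineage kinase gene upstream of JNK, had 20.4, 21.5 and 21.7 CPM in baicalin libraries, against 24.2, 25.2 and 23.3 CPM in saline libraries. These ranges too stayed apart, with a log2 change of -0.19 ± 0.07 (SE; edgeR adjusted p = 0.386). Of its exonic bases 11.8% lie opposite other genes; use of strand in counting was not given in the sources used here. Without baicalin library 1 (-0.17), saline library 1 (-0.19) or saline library 2 (-0.17) its unadjusted p in edgeR was above 0.05. Map3k3, which encodes the ERK5-branch kinase MEKK3, was the remaining non-overlapping gene among the 10 tested in the tier, with a log2 change of -0.16 (interval -0.33 to 0.02). Map3k7, which encodes the cytokine signalling kinase TAK1, was at -0.12 (interval -0.27 to 0.02), and Map3k5, which encodes the oxidative stress kinase ASK1, was at 0.0013 (interval -0.24 to 0.24). The most abundant member, Map3k10, was at -0.02 (interval -0.14 to 0.09). Map3k2, Map3k4 and Map3k9 were at -0.10, 0.11 and -0.08 with overlapping groups.

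Of the 5 MAP4K genes 4 were tested, with 0 under an unadjusted p of 0.05. Map4k4, a kinase upstream of JNK, was at -0.03 (interval -0.18 to 0.12), Map4k3 at -0.03 and Map4k2 at 0.17 (interval -0.11 to 0.45). Map4k5 had 63.3, 35.2 and 33.3 CPM in baicalin libraries, against 66.2, 41.0 and 48.9 CPM in saline libraries. Library 1 was the highest in each group, and the standard deviation was 38.2% of the mean with baicalin and 24.7% with saline. Pooled over both groups this spread, at 32.2%, was the widest of the 51 genes, followed by Map2k7 at 29.9%. Its log2 change of -0.24 became -0.61 without baicalin library 1 (edgeR adjusted p = 0.345) and -0.03 without saline library 1.

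The phosphatases held the largest difference of the set. Dusp6 (ENSMUSG00000019960, mm10 chromosome 10, 99263231 to 99267489, plus strand), the cytoplasmic ERK phosphatase shown above, had 46.9, 47.6 and 47.2 CPM in baicalin libraries, against 67.8, 74.6 and 59.8 CPM in saline libraries. All baicalin libraries lay below all saline libraries. The baicalin libraries spanned a far narrower range, with an SD of 0.726% of their mean. That is less than counting noise alone gives at counts of this size (2823 to 4885 over all 6 libraries). Means were 47.2 ± 0.34 CPM with baicalin and 67.4 ± 7.42 CPM with saline (SD, n = 3 each). The log2 change was -0.51 ± 0.09 (SE), with a 95% interval from -0.72 to -0.31 (edgeR adjusted p = 0.213). DESeq2 gave it an adjusted p of 6.59e-05, and over all alternatives the adjusted p ranged from 6.59e-05 to 0.576. Its unadjusted p was under 0.05 in all 18 alternatives, with log2 changes from -0.59 to -0.43. The smallest of these was without saline library 2. Summed markers of CA1 pyramidal cells, described at the end, were also lower in each baicalin library (210.5 to 254.2 FPKM, against 261.2 to 271.5 FPKM with saline).

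Dusp7, the other cytoplasmic ERK phosphatase tested, had 46.4, 44.1 and 44.9 CPM in baicalin libraries, against 48.8, 51.1 and 45.9 CPM in saline libraries. Its groups overlapped, with a log2 change of -0.11 and an interval from -0.25 to 0.04. Within a library, Dusp6 FPKM was 1.08 to 1.16 times that of Dusp7 with baicalin and 1.40 to 1.56 times with saline. Dusp9, the remaining gene of that class, was under the filter at 0.123 FPKM.

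The nuclear, activity-induced phosphatases had wide intervals that all included 0. Dusp1 had 9.83, 11.5 and 9.87 CPM in baicalin libraries, against 11.8, 11.5 and 9.54 CPM in saline libraries. Its log2 change was -0.07 (interval -0.36 to 0.21). Dusp4 had 18.7, 16.7 and 17.7 CPM in baicalin libraries, against 16.8, 19.0 and 21.9 CPM in saline libraries, at -0.12 (interval -0.39 to 0.15). Dusp5 had 24.7, 17.3 and 21.01 CPM in baicalin libraries, against 23.0, 28.6 and 21.5 CPM in saline libraries, at -0.21 (interval -0.60 to 0.17). All of these groups overlapped. The windows of Dusp1 and Dusp5 were shown partly because of that overlap, so their CRE and CArG matches cannot be related to a difference. An antisense gene lies opposite 22.1% of the exonic bases of Dusp5. Of the phosphatases that act on JNK and p38, Dusp8 was at -0.06, Dusp16 at -0.18 and Dusp10 at 0.06.

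Of the 8 classical MAP kinase phosphatases tested, 7 had negative log2 changes, with a median of -0.11, where 50.2% of all genes were negative. Of these 8, 1 (Dusp6) was lower at an unadjusted p under 0.05, beside 5.46% of all genes. Among the 11 other DUSP genes tested, 7 were negative, with a median of -0.02. Dusp19, an atypical phosphatase, had 12.1, 11.3 and 11.1 CPM in baicalin libraries, against 12.2, 15.2 and 14.02 CPM in saline libraries. The gap between the groups was narrow, and the log2 change was -0.26 ± 0.10 (SE; edgeR adjusted p = 0.411). Its unadjusted p in edgeR was above 0.05 without baicalin library 2 (log2 change -0.25), baicalin library 3 (-0.24), saline library 2 (-0.19) or saline library 3 (-0.25). On the high side, Dusp23 (0.36, interval -0.03 to 0.76) and Dusp28 (0.17, interval -0.0038 to 0.35), small atypical phosphatases, had all baicalin libraries above all saline libraries. Dusp11, which encodes an RNA phosphatase, had the reverse, at -0.10 (interval -0.22 to 0.01). The remaining 7 DUSP genes tested had overlapping groups, with Dusp14 at 0.11, Dusp3 at 0.09, and Dusp12, Dusp15, Dusp18, Dusp22 and Dusp26 between -0.03 and -0.01.

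**Figure D3:**
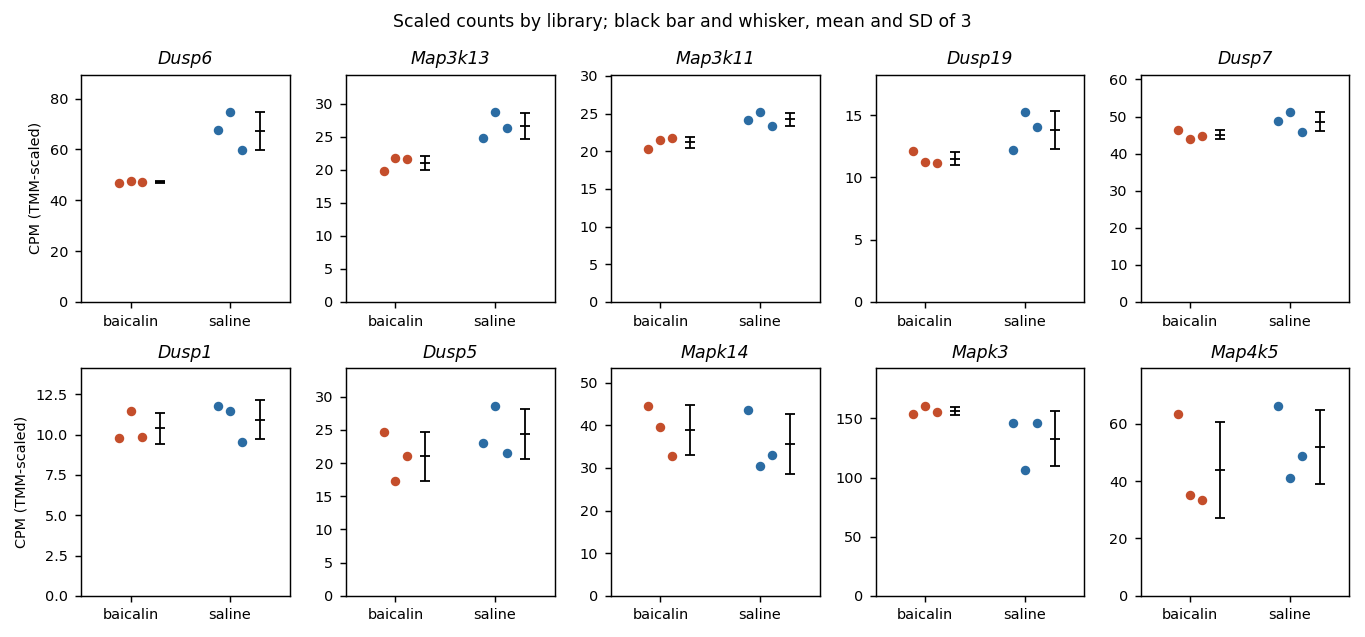
Scaled counts (CPM, axes from 0) of 10 genes in each library, baicalin left and saline right, with the mean and SD of each group of 3 in black. Dusp6 and Map3k13 show separated groups, with Dusp6 at 46.9 to 47.6 CPM with baicalin and 59.8 to 74.6 CPM with saline, while Dusp1, Dusp5 and Mapk14 overlap and saline library 2 is low for Mapk3.

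**Figure D4:**
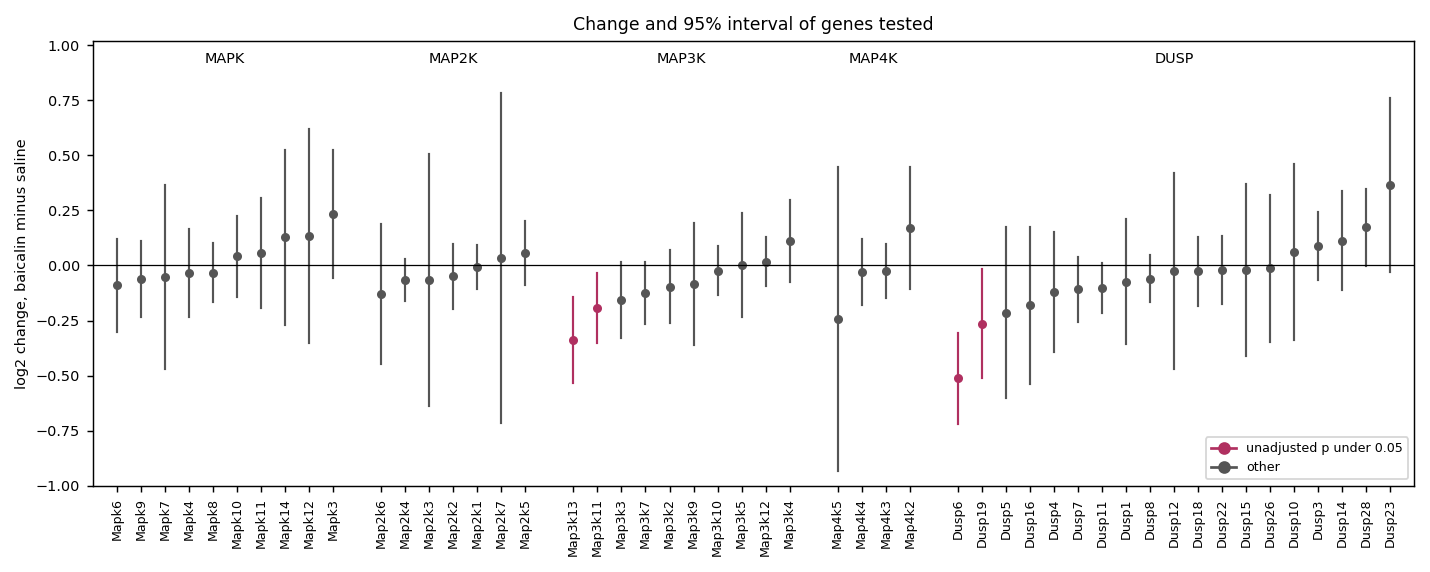
Log2 change (baicalin minus saline) of 50 of the genes tested as points with 95% intervals as lines, ordered within each tier; colour marks an unadjusted p under 0.05 in edgeR. The 4 coloured genes, Dusp6, Map3k13, Dusp19 and Map3k11, all lie below 0, and Map2k7 and Map4k5 have the widest intervals.

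Set side by side, the tiers differed little in their centre. Median log2 changes were 0.03 for MAPK, -0.05 for MAP2K, -0.09 for MAP3K, -0.03 for MAP4K and -0.03 for DUSP genes, beside -0.00063 for all genes tested. Under TPM scaling the medians were -0.05, -0.13, -0.17, -0.11 and -0.105 in the same order of tiers, and the MAP4K median was 0.03 with the length trend described below removed. Leaving out 1 library moved the DUSP median as far as -0.09 (without baicalin library 2), the MAP2K median to 0.01 (without saline library 3) and the MAP3K median to -0.05 (without baicalin library 3). Negative changes made up 34 of the 51 (66.7%), against 50.2% of all genes. The changes lay within 0.1 of 0 for 30 of the 51 genes, beside 6752 of all 13153 genes. By tier this was 8 of 11 MAPK, 6 of 7 MAP2K, 5 of 10 MAP3K and 9 of 19 DUSP genes. Summed over the 10 classical MAP kinase phosphatases, the level was 71.8, 68.4 and 68.6 FPKM in baicalin libraries, against 79.6, 82.8 and 75.9 FPKM in saline libraries. The phosphatase sums were all lower with baicalin. Dusp6 alone supplied 12.9 to 13.3 FPKM of the phosphatase sum with baicalin and 16.6 to 20.6 FPKM with saline. Across the transcriptome longer genes had lower changes, with a median of 0.11 in the shortest and -0.07 in the longest of 5 length bins; with it removed the MAP3K median was -0.04.

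Genes that feed, hold back or follow the cascade without bearing these symbols were taken from lists of pathway genes, and 0 of them passed the adjusted threshold in edgeR. Median log2 changes were -0.14 for 8 negative feedback inhibitors, -0.04 for 26 genes of RAS, RAF and their regulators, 0.05 for 14 scaffolds, -0.0064 for 7 other phosphatases, 0.06 for 9 effector kinases and -0.08 for 19 nuclear targets. Among the feedback inhibitors, Spred1, Spred2 and Spred3, which restrain RAF activation by RAS, were lower at an unadjusted p under 0.05 and 0 were higher, beside 5.46% and 6.34% of all genes. Spred1 had 123.4, 124.2 and 117.7 CPM in baicalin libraries, against 140.9, 144.0 and 141.6 CPM in saline libraries. Its groups were well apart, with a log2 change of -0.22 ± 0.04 (SE; edgeR adjusted p = 0.227). DESeq2 gave Spred1 an adjusted p of 0.0135, and over its alternatives the adjusted p reached 0.615. Spred2 and Spred3 were at -0.20 ± 0.05 and -0.19 ± 0.07 (SE), also without overlap, though Spred3 was above an unadjusted p of 0.05 without baicalin library 1 or 3, without any 1 saline library or with the length trend removed. The sprouty genes Spry2 and Spry4, which are related inhibitors, were at 0.08 and -0.21 with overlapping groups. Spry1 had 9.57, 9.92 and 11.6 CPM in baicalin libraries, against 9.12, 10.4 and 0.089 CPM in saline libraries, where library 3 nearly lacked it.

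Among 26 genes of RAS, RAF and their regulators, 3 were lower and 0 higher at an unadjusted p under 0.05, again beside 5.46% and 6.34% of all genes. They were the RAS exchange factor genes Sos1 (-0.18), Sos2 (-0.30) and Rasgrp1 (-0.22). Sos1 was above that level with the length trend removed (-0.12), and Rasgrp1 without baicalin library 2 or 3 or saline library 2. RAF genes lay between -0.12 for Braf and 0.07 for Araf. Grb2, the adaptor that brings SOS to receptors, had 175.6, 167.4 and 168.2 CPM in baicalin libraries, against 75.7, 170.0 and 73.7 CPM in saline libraries. Its saline libraries split, so the log2 change of 0.68 had an interval from -0.09 to 1.45. Without saline library 2, Grb2 had a log2 change of 1.19 and an edgeR adjusted p of 0.00324. That fit drops the only saline library at the level of the baicalin libraries, and over its alternatives the adjusted p reached 0.679. Whether Grb2 shares exons with another gene was not checked. Of 14 scaffold genes 1 was higher, Lamtor2 of the endosomal MEK1 scaffold (0.20), where 6.34% of all genes were. Another 1 was lower, the JNK scaffold gene Spag9 (-0.12), where 5.46% of all genes were. Of 7 other MAP kinase phosphatases tested, 1 was lower at an unadjusted p under 0.05, where 5.46% of all genes were. It was Ptpn5, the neuronal phosphatase STEP (-0.15). An unadjusted p under 0.05 was kept by Lamtor2 in 16 of 18 alternatives (not under TPM scaling or with the length trend removed), by Spag9 in 8 and by Ptpn5 in 13. Of 9 effector kinase genes 0 were under an unadjusted p of 0.05 in edgeR. The smallest p on each side belonged to Rps6ka3 (0.68, interval -0.29 to 1.66) and Mknk2 (-0.06, interval -0.26 to 0.13), which encode the ERK effectors RSK2 and MNK2.

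Transcription factor genes that MAP kinases act on or induce had 5 of 19 lower and 0 higher at an unadjusted p under 0.05, where 5.46% of all genes were lower and 6.34% higher. The 5 were Egr1, Fos, Egr4 and Junb, which are immediate early genes, and Srf, which encodes serum response factor. Egr1 had 92.2, 67.96 and 75.7 CPM in baicalin libraries, against 105.6, 117.7 and 104.5 CPM in saline libraries. Srf had 32.0, 31.9 and 33.7 CPM in baicalin libraries, against 37.1, 36.4 and 36.7 CPM in saline libraries. Both were separated between groups, at -0.48 ± 0.12 and -0.18 ± 0.05 (SE). DESeq2 gave Egr1 an adjusted p of 0.00934, while over its alternatives the adjusted p reached 0.638. Fos and Junb were above an unadjusted p of 0.05 without baicalin library 1, saline library 1 or saline library 2, Junb also without baicalin library 2, and Egr4 without saline library 1. Jun (0.21) and Junb (-0.33) had overlapping groups. Of the 19 genes, 5 had all baicalin libraries below all saline libraries, where 9.52% of all genes did. The largest change of the 19 was that of Mef2c, at -1.01 (interval -2.06 to 0.04). It had 103.9 CPM in saline library 3, against 35.9 and 36.0 CPM in the other saline libraries. Dusp6, Egr1, Spred1 and Srf each had all baicalin libraries below all saline libraries, whereas Dusp1, Egr3 (-0.06) and Ier2 (-0.06) had overlapping groups. These genes were set side by side with their values known, and whether they vary together was not tested.

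**Figure D5:**
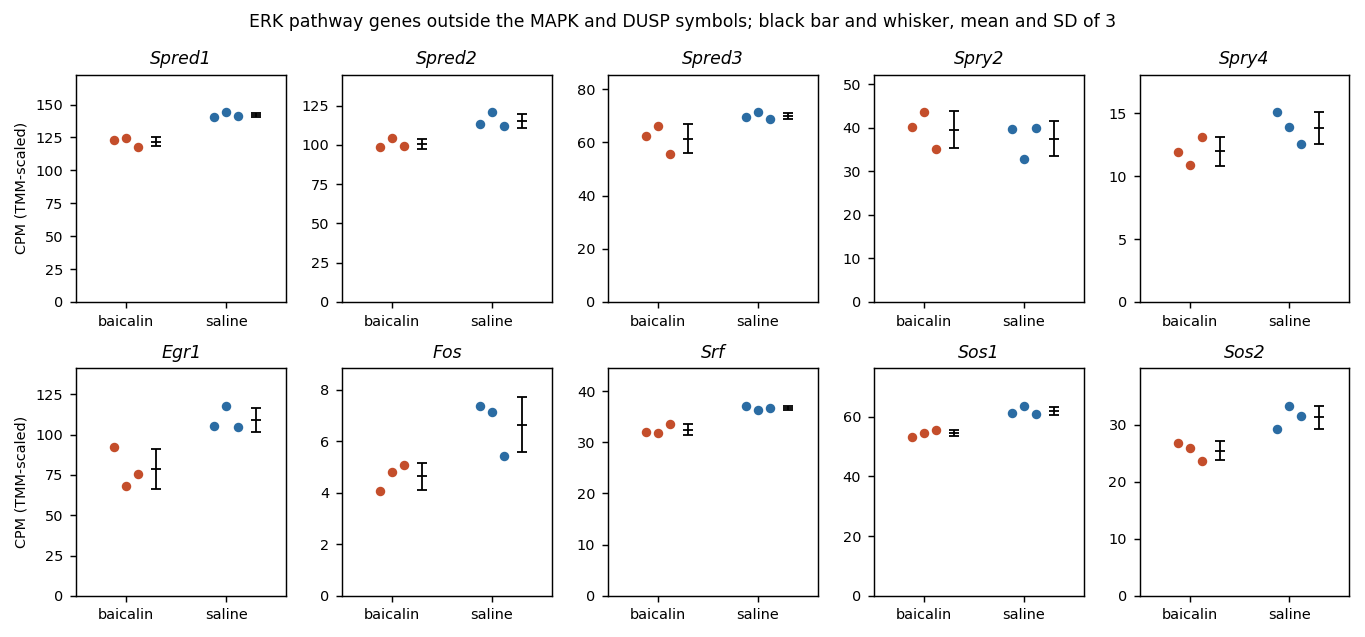
Scaled counts (CPM, axes from 0) of 10 pathway genes in each library, baicalin left and saline right, with the mean and SD of each group of 3 in black. Spred1, Egr1, Fos, Srf, Sos1 and Sos2 separate the groups, with Spred1 at 117.7 to 124.2 CPM with baicalin and 140.9 to 144.0 CPM with saline, whereas Spry2 and Spry4 overlap.

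The label hippocampus was checked against markers, and the CA1 pyramidal cell list (6 of 6 measured), dentate granule cell list (7 of 7) and lists of interneurons and glia were all present, with none at 0 throughout. Summed markers of CA1 pyramidal cells, the output neurons of the hippocampus, were 254.2, 210.5 and 234.4 FPKM in baicalin libraries, against 271.5, 269.6 and 261.2 FPKM in saline libraries. Of these 6 markers 5 had negative changes, where 50.2% of all genes did, and the median was -0.31. At an unadjusted p under 0.05 in edgeR 3 were lower, where 5.46% of all genes were. Of the 7 granule cell markers 6 had positive changes, as did 6555 of all 13153 genes, and the marker median was 0.255. Of these markers 2 were higher at an unadjusted p under 0.05, where 6.34% of all genes were. For 3 of them all baicalin libraries lay above all saline libraries, where 9.93% of all genes did so. The granule cell sum was 105.0, 105.3 and 107.9 FPKM in baicalin libraries, against 100.4, 75.2 and 105.4 FPKM in saline libraries. Those sums overlapped between groups, and saline library 2 was far below the rest. The CA1 sum was thus lower in each baicalin library, as were Dusp6, Spred1 and Egr1, and its part in those differences was not tested. A single marker, Neurod6, supplied 117.3 to 136.4 FPKM of the CA1 sum with baicalin and 141.6 to 154.1 FPKM with saline. Taken 1 by 1, 3 of the 6 CA1 markers had all baicalin libraries below all saline libraries, where 9.52% of all genes did so. Sums for interneurons, astrocytes, oligodendrocytes, microglia, endothelium and choroid plexus overlapped between groups. Markers of meninges were high in saline library 3, at a sum of 21.9 FPKM against 8.59 and 10.4 FPKM in the other saline libraries and 9.90 to 10.8 FPKM with baicalin. Without that library the Dusp6 log2 change was -0.59.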

How the data were processed

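RNA was sequenced from hippocampus after ribosomal RNA depletion, per the labels' protocols. The submitters' processing notes name the build mm10 and, among tools, limma, DESeq2, StringTie, HISAT2 and bcl2fastq 2.0; their roles were not given in the sources used here. The authors deposited whole-number counts per gene and FPKM values, both used here, per the file headers. Another 12 columns of per-sample values had names that fit none of the labels and stayed out.

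Groups came from the labels (3 baicalin, 3 saline). The 13153 genes averaging 1 FPKM or more were fitted with edgeR 4.0.16 in R 4.3.3: TMM scaling, the quasi-likelihood test, 1 term for treatment and Benjamini-Hochberg adjustment over all genes at 0.05. Log2 changes are baicalin minus saline; the standard error is the change divided by the root of F, and 95% intervals use the moderated degrees of freedom (6.62). CPM is TMM-scaled. Alternatives used limma 3.58.1 and DESeq2 1.42.0. The procedure was also run on counts simulated with the same dispersion for every gene, which does not show its sensitivity on these data. The genes and lists were chosen with earlier results of these data known. Named genes were all those with an unadjusted p under 0.05, the highest and most changed of each tier, 19 always named and, per pathway list, the smallest p in each direction; others were chosen after their values were seen. All 66 gene identifiers matched GENCODE mouse release M21, 53 with the same coordinates. In 9, over 10% of exonic bases are shared with another gene, so their counts are less certain. No 2 libraries of the same group agreed within sampling noise, and pairs across groups were not checked. The values of 1 of the 66 genes, which enters the counts and medians, are not reported here.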

Additional observations from a re-analysis of the deposited data

How the results depend on the processing

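Direction held in all 18 alternatives for Dusp6, Map3k11, Mapk3, Mapk14, Map2k2, Map2k4, Map3k7, Dusp4, Dusp5 and Dusp8, and in the 17 that gave a value for Map3k13, Dusp19, Dusp1, Map2k6 and Map4k5, which a filter of 5 FPKM removes. Precision is limited by 3 libraries a group. All genes called numbered 211 with DESeq2 and 0 with a replicate block, against 6, and 2 to 40 without 1 library: 2 when baicalin library 3 was left out, 40 for baicalin library 1, 14 for saline library 3 and 10 for saline library 2. Of the 51 genes, DESeq2 called 2, Dusp6 (-0.514) and Map3k13 (-0.34). Lower genes at an unadjusted p under 0.05 numbered 10 under TPM scaling, which moved the median of all genes to -0.0812, and 2 with a filter of 5 FPKM or a replicate block, against 4, and 3 to 6 without 1 library. Higher ones numbered 1, against 0, with upper-quartile scaling, limma with either pseudocount, no filter, filters of 0.1 or 5 FPKM and the block, and 0 to 1 without 1 library. Same-numbered libraries correlated at 0.123, 0.0795 and 0.0124 in their deviations from group means. For baicalin libraries 1 and 2 the same-numbered saline library gave the highest correlation. Baicalin library 3 correlated best with saline library 2 (0.0357). The labels do not state that the numbers pair animals, so the main fit has no block, and these values cannot exclude pairing. With the block, Map3k11, Dusp19, Srf, Junb, Spag9 and Ptpn5 had unadjusted p-values above 0.05. Tier medians under TPM scaling were -0.0519 (MAPK), -0.131 (MAP2K), -0.167 (MAP3K), -0.11 (MAP4K) and -0.105 (DUSP). With the length trend removed, they were -0.0377 (MAP3K) and 0.0332 (MAP4K). Without 1 library, medians ranged from -0.0279 to 0.0512 (MAPK), -0.0627 to 0.0119 (MAP2K), -0.126 to -0.0521 (MAP3K), -0.0471 to -0.00493 (MAP4K) and -0.0911 to -0.0288 (DUSP). Genes near 0 changed sign. TPM scaling gave Mapk10 -0.0379, Map3k5 -0.0755 and Map3k12 -0.062. Removing the length trend gave Map4k4 0.0288 and Mapk8 0.0383, and upper-quartile scaling Map2k1 0.00027. Map3k5 was at -3.68e-06 with DESeq2 size factors, -0.00987 and -0.0133 in limma with pseudocounts of 1 and 0.1, -0.00138 with a filter of 0.1 FPKM and -0.00642 with the block. Without 1 library, values that changed sign ranged from -0.0296 to 0.0163 (Map2k1), -0.0494 to 0.00511 (Map3k10), -0.0119 to 0.0397 (Map3k12), -0.112 to 0.0727 (Map3k5), -0.0728 to 0.02 (Map4k4), -0.0279 to 0.0965 (Mapk10), -0.211 to 0.0512 (Mapk7), -0.0602 to 0.0149 (Mapk8) and -0.0994 to 0.00474 (Mapk9). The cause was not tested.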
